A study of Mus musculus with 9 samples.

Results

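The genes described here are the mouse MHC class II genes and their transactivator: the classical chains H2-Aa, H2-Ab1 and H2-Eb1, the invariant chain Cd74, the DM chains H2-DMa, H2-DMb1 and H2-DMb2, the DO chains H2-Oa and H2-Ob, and Ciita. They were found by gene symbol in a table of 26770 genes and loci, and all 10 were present. All 10 also passed the filter on low counts, which left 15447 genes. RNA had been sequenced from wild-type mouse spleen cells labelled as monocytes, in 9 libraries that fall into 3 groups of 3, and the labels give no strain, sex or age. Untreated cells received the solvent DMSO, at a dilution of 1 in 1000 in the series text. LPS cells received 40 ng/ml lipopolysaccharide, a component of the bacterial outer membrane sensed by Toll-like receptor 4, for 5 hours. LPS with octanal cells were primed with LPS and then given 20 µM octanal, an aldehyde ligand of the olfactory receptor Olfr2, for 18 hours. The labels of single libraries count up within a group, to 20 hours of octanal and to DMSO at 1 in 1002, and the libraries of a group were treated as alike. Time in culture and solvent may differ between the groups along with octanal, and their parts cannot be told apart. Whether replicates were separate animals or separate cultures is not in the labels, and a p-value here speaks only of the spread from library to library, which may be technical.

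MHC class II molecules are pairs of an alpha and a beta chain that carry peptides from endosomes to the cell surface, where CD4 T cells read them. The invariant chain holds the groove closed during assembly, DM exchanges its last fragment for a peptide, and DO restrains DM. Ciita does not bind DNA itself; it is recruited to class II promoters by factors on the X and Y boxes and is switched on by interferon gamma. B cells and dendritic cells carry much class II, and classical monocytes little until they are activated.

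Total counts were 29594291 to 38388421 per library. Markers of monocytes and of other spleen cells were both present. Of the 9 markers of classical monocytes, none was at 0, and their summed level was 2062 to 14050 CPM (counts per 1e6 counts, on scaled totals) over the 9 libraries. They were uneven: Lyz2 averaged 3812 CPM and Itgam 1421 CPM, but Ccr2 5.84 CPM and Fcgr1 1.24 CPM. Ly6c2 was at 168, 2.82 and 249 CPM in untreated, 7.90, 0.564 and 0.387 CPM in LPS, and 1.01, 0.994 and 0.625 CPM in LPS with octanal replicates. The 12 neutrophil markers summed to 1464 to 24993 CPM, the 11 T cell markers to 143 to 1626 CPM, and the 14 B cell markers in the table to 113 to 466 CPM. In bulk RNA of this kind, fewer cells of a type and less RNA per cell cannot be told apart. In each group 1 library stood apart from the other 2 in H2-Eb1 (untreated replicate 3, LPS replicate 2 and LPS with octanal replicate 2). Many results, but not all, are also given without these libraries.

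The promoters of class II genes carry the X and Y boxes in a fixed order, and the 4 stretches below, from the RefSeq promoter table for GRCm38.p6, show that shared layout just before the start of the H2-Aa, H2-Eb1, H2-Oa and H2-Ob genes. The letters GNAAC (X core) followed by ATTGG (Y core) are in capitals, in the 5′ to 3′ direction of the gene.
H2-Aa (chr17:34287867-34287919, minus strand): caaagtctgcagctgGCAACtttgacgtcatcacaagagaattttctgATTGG
H2-Eb1 (chr17:34305761-34305812, plus strand): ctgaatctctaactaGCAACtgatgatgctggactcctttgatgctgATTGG
H2-Oa (chr17:34092288-34092340, plus strand): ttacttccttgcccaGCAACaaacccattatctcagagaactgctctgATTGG
H2-Ob (chr17:34238803-34238852, plus strand): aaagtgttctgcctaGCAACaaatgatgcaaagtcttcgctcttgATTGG

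The X core lay 81 bases before the RefSeq start of H2-Aa, 91 before H2-Eb1, 76 before H2-Oa and 87 before H2-Ob, with 28, 27, 28 and 25 bases between the cores. The table held windows of 300 bases for 7 of the 10 genes. The pair of cores, 15 to 40 bases apart on the gene's strand, was in 5 of these 7, H2-DMb1 being the fifth. Among all 32851 windows of the table, 2.07% held the pair on the gene's strand and 4.23% on either strand, and the overlap of the cores with other motifs was not examined. The letters were chosen after these windows had been read, so the count is a description.

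Per transcript length, Cd74 was by far the most abundant of the 10 genes and Ciita the least. The authors' FPKM values (fragments per length and depth) averaged 316 for Cd74 over the 9 libraries, 56.1 for H2-Aa, 47.3 for H2-Ab1 and 18.7 for H2-Eb1. The antigen-loading chains were lower, with 6.99 for H2-DMb2, 6.81 for H2-DMa, 5.44 for H2-Oa, 3.22 for H2-Ob and 2.47 for H2-DMb1, and the transactivator Ciita averaged 1.74. Cd74 lay above H2-Aa in 9 of 9 libraries without overlap, 192 FPKM being its lowest value and 98.4 the highest of H2-Aa. For every other pair of neighbours in this order the ranges over the 9 libraries overlapped. H2-Aa lay above H2-Ab1 in 7 of 9 libraries, H2-DMb2 above H2-DMa in 5 of 9, and H2-Eb1 above H2-DMb2 in only 3 of 9. H2-Oa lay above H2-Ob in all 9 libraries although their ranges overlapped.

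**Figure D1:**
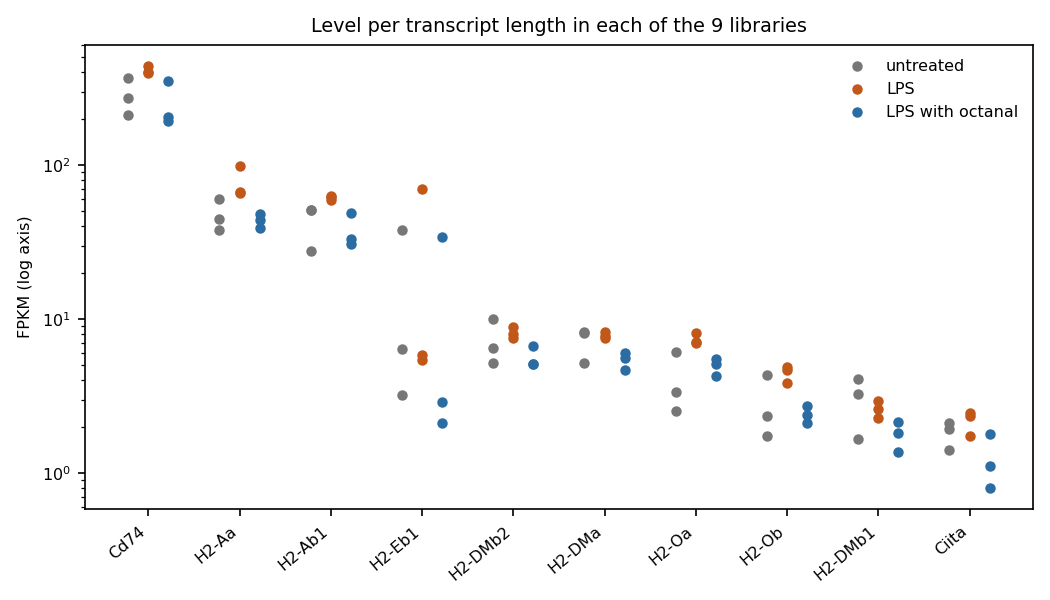
Deposited FPKM (log axis) of each gene in each of the 9 libraries, coloured by group, genes ordered by their mean over all libraries. Cd74 lies above all other members, between 192 and 440 FPKM, and H2-Eb1 is split into 3 high and 6 low libraries.

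The design asks how LPS changes expression in these cells and how octanal after LPS does. None of the 10 genes passed the test in any comparison (edgeR's quasi-likelihood test, Benjamini-Hochberg adjusted p under 0.05 over all genes tested). Of all 15447 genes, 32.8% passed for LPS against untreated, 0% for LPS with octanal against LPS and 8.67% for LPS with octanal against untreated. Fitted values were higher with LPS than in untreated cells for 9 of 10 genes, against 50.7% of all genes. They were lower with octanal after LPS than with LPS alone for 10 of 10, against 54.6% of all genes. These comparisons share the LPS libraries, so they are not independent of each other.

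**Figure D2:**
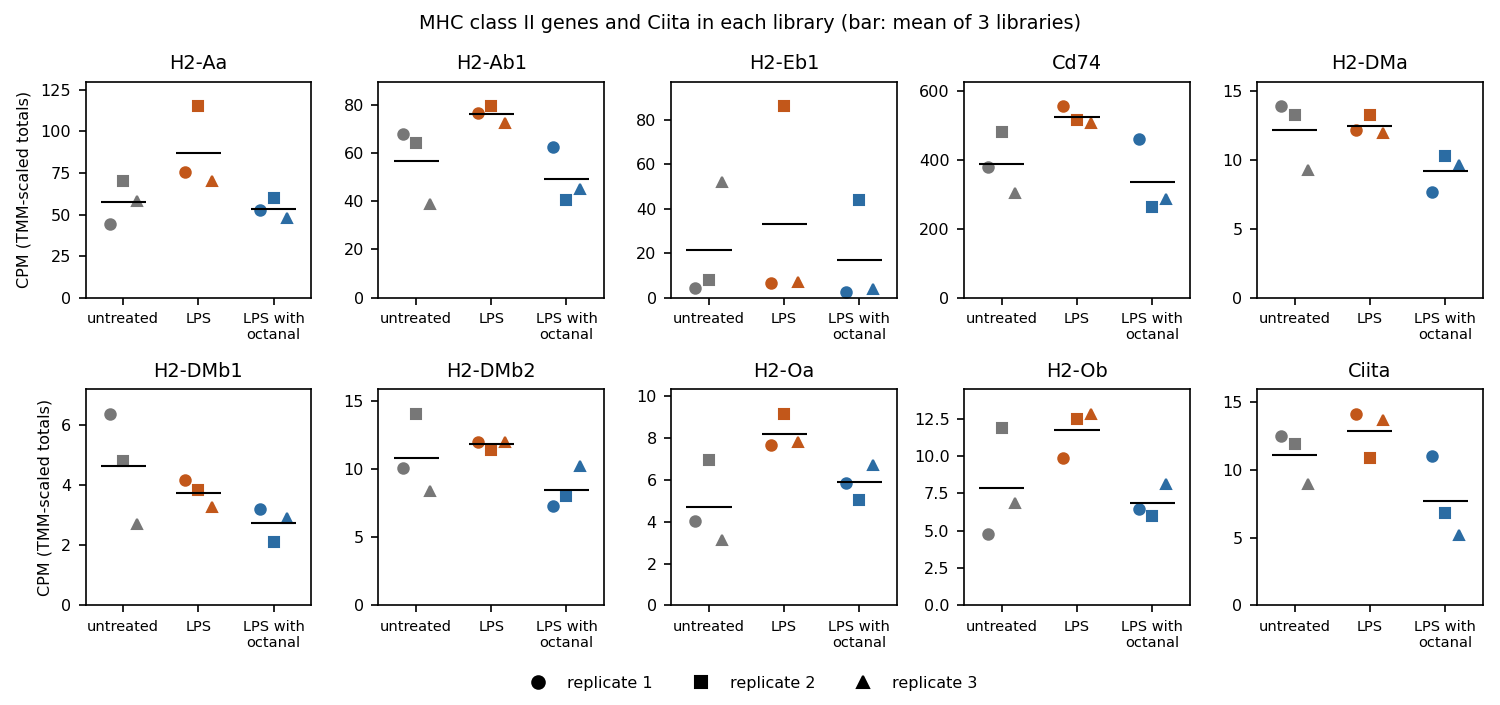
Level of each gene in CPM on TMM-scaled totals, by group, with a symbol per replicate and a bar at the mean of 3 libraries. In 8 of 10 panels the LPS with octanal points all lie under the LPS points; H2-Eb1 has 1 high library in each group.

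H2-Aa encodes the alpha chain of the I-A molecule (GRCm38 chr17:34282744-34287823, minus strand). Its level was 44.6, 70.3 and 58.3 CPM in untreated replicates 1 to 3, 75.4, 115 and 70.0 CPM with LPS, and 52.8, 59.7 and 47.8 CPM with LPS and octanal. LPS replicate 2 was the highest library, the lowest LPS library lay just under the highest untreated one, and the octanal libraries did not overlap with the LPS libraries. The difference in log2 level was 0.59 ± 0.220 (SE) for LPS against untreated (adjusted p = 0.068, edgeR) and -0.70 ± 0.220 for LPS with octanal against LPS (adjusted p = 0.12).

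H2-Ab1 encodes the beta chain that pairs with H2-Aa (chr17:34257689-34269419, plus strand). Its level was 67.6, 64.1 and 38.7 CPM in untreated, 76.3, 79.2 and 72.4 CPM in LPS, and 62.4, 40.6 and 45.0 CPM in LPS with octanal replicates. The LPS libraries lay close together and above all others. On the log2 scale LPS differed from untreated by 0.42 ± 0.221 (adjusted p = 0.17, edgeR) and octanal from LPS by -0.62 ± 0.222 (adjusted p = 0.15).

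Cd74, the invariant chain, which is also a surface receptor for the cytokine MIF (chr18:60803848-60812652, plus strand), was measured at 378, 480 and 304 CPM in untreated, 555, 515 and 507 CPM in LPS, and 461, 264 and 286 CPM in LPS with octanal replicates. As for H2-Ab1, each LPS library was above each library of the other groups. The log2 difference was 0.44 ± 0.232 for LPS against untreated (adjusted p = 0.17, edgeR) and -0.64 ± 0.232 for octanal against LPS (adjusted p = 0.16). The ratio of Cd74 to H2-Aa in FPKM lay between 3.98 and 8.01 in the 9 libraries, and its mean log2 value was 2.57 ± 0.31 (SD, n = 3) in the untreated group, 2.44 ± 0.38 with LPS and 2.46 ± 0.51 with LPS and octanal.

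H2-Eb1, the beta chain of the I-E molecule (chr17:34305867-34316674, plus strand), differed from the others in its spread. It was measured at 4.22, 7.92 and 52.0 CPM in untreated, 6.51, 86.1 and 7.03 CPM in LPS, and 2.68, 44.1 and 3.85 CPM in LPS with octanal replicates. A single library per group was thus high, and the groups overlapped fully. The pooled SD of its log2 CPM within groups was 2.06, against a median of 0.183 over the 9090 genes of at least 10 mean CPM, of which 18 (0.198%) had a larger SD. The log2 difference was 0.64 for LPS against untreated with a 95% interval of -2.52 to 3.80 (adjusted p = 0.75, edgeR), and -0.97 for octanal against LPS with an interval of -4.14 to 2.20 (adjusted p = 0.70). Without the 3 high libraries these differences were 0.15 (adjusted p = 0.82) and -1.02 (adjusted p = 0.40).

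Other genes of the H2 complex also differed in the libraries high in H2-Eb1, and those given here did so in the opposite direction. A locus without a gene model that the table's annotation text names as H2-Ea, the alpha chain of I-E, had 324, 506 and 122 counts in untreated, 878, 355 and 842 in LPS, and 483, 174 and 389 in LPS with octanal replicates. H2-D1, a class I gene of the same complex, was measured at 2211, 2160 and 1194 CPM in untreated, 3012, 1315 and 2672 CPM in LPS, and 2524, 1225 and 2069 CPM in LPS with octanal replicates. In each group both were lowest in the library where H2-Eb1 was highest. The labels give no strain, and the part of differing H2 alleles or of cell origin in the values of these genes was not tested. The highest and lowest of the 9 libraries differed 32.2-fold for H2-Eb1, but 2.59-fold for H2-Aa and 2.04-fold for H2-Ab1, as the plot of H2-Eb1 by library shows.

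**Figure D3:**
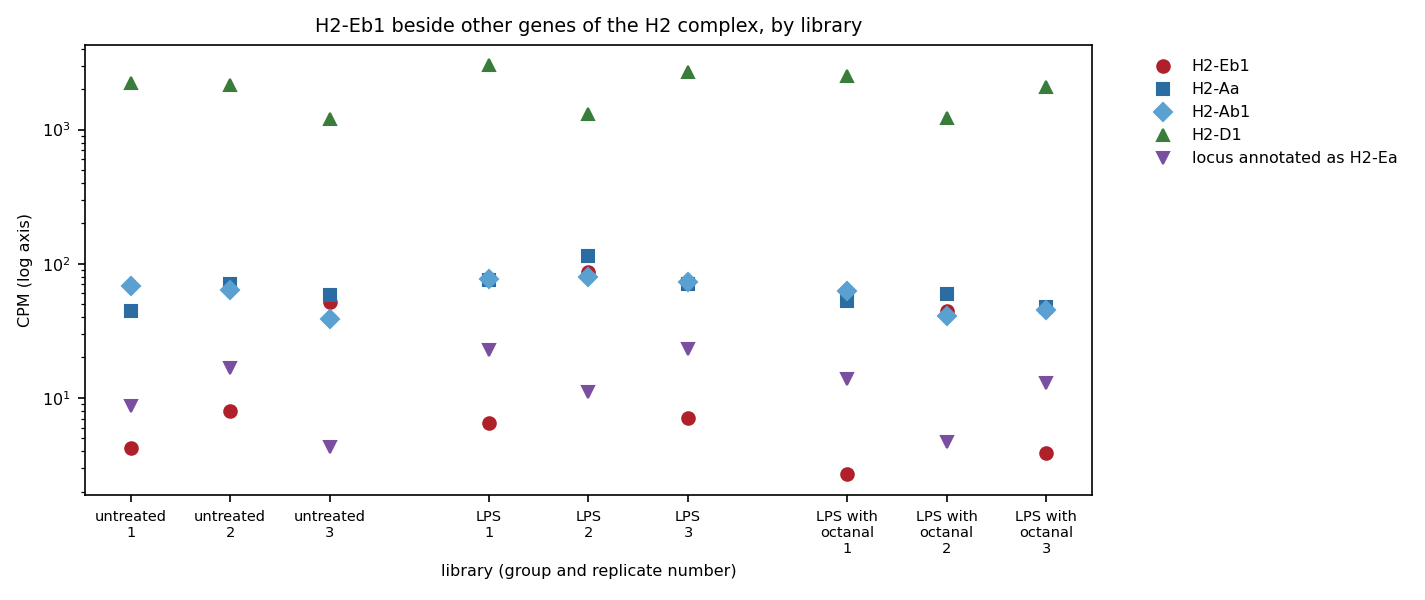
CPM (log axis) of H2-Eb1, the classical chains H2-Aa and H2-Ab1, the class I gene H2-D1 and the locus annotated as H2-Ea in the 9 libraries. H2-Eb1 is at 52.0, 86.1 and 44.1 CPM in 1 library of each group, where H2-D1 and the H2-Ea locus are lowest of their group.

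The DM chains form the peptide exchanger of the endosome. H2-DMa (chr17:34119541-34139101, plus strand) was measured at 13.9, 13.3 and 9.28 CPM in untreated, 12.2, 13.3 and 12.0 CPM in LPS, and 7.65, 10.3 and 9.68 CPM in LPS with octanal replicates. Untreated and LPS libraries overlapped, and the octanal libraries lay under those of LPS. Its log2 difference was 0.04 ± 0.191 for LPS against untreated (adjusted p = 0.90, edgeR) and -0.44 ± 0.191 for octanal against LPS (adjusted p = 0.22).

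The beta chain of DM has 2 genes in the mouse. H2-DMb2 (chr17:34143307-34151555, plus strand) was measured at 10.1, 14.0 and 8.36 CPM in untreated, 12.0, 11.4 and 12.0 CPM in LPS, and 7.25, 8.0 and 10.2 CPM in LPS with octanal replicates. H2-DMb1 (chr17:34153072-34160230, plus strand) was lower, at 6.35, 4.81 and 2.69 CPM in untreated, 4.17, 3.82 and 3.26 CPM in LPS, and 3.19, 2.12 and 2.90 CPM in LPS with octanal replicates. For both, the octanal libraries lay under the LPS libraries and the untreated libraries spread over both groups. Octanal differed from LPS by -0.48 ± 0.216 for H2-DMb2 (adjusted p = 0.23, edgeR) and by -0.45 ± 0.330 for H2-DMb1 (adjusted p = 0.43). H2-DMb1 was the only gene of the 10 with a lower fitted value in LPS than in untreated cells, by -0.30 ± 0.327 (adjusted p = 0.50). The longest protein-coding transcripts of these genes were 95.5% identical over 1058 aligned bases, and 26.6% of the runs of 50 bases in H2-DMb1 also occurred in H2-DMb2, so how the authors' counting split reads between them is uncertain.

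The DO chains form the inhibitor of DM and are best known from B cells. H2-Oa, the alpha chain (chr17:34092340-34095234, plus strand), was measured at 4.03, 6.94 and 3.15 CPM in untreated, 7.69, 9.14 and 7.83 CPM in LPS, and 5.87, 5.05 and 6.72 CPM in LPS with octanal replicates. Each LPS library exceeded every library of both other groups. With a log2 difference of 0.80 ± 0.290 (1.75-fold, 95% interval 1.11 to 2.75), H2-Oa came closest of the 10 genes to the threshold in LPS against untreated (adjusted p = 0.061, edgeR). It passed in that comparison with DESeq2 (0.79, adjusted p = 0.025) and with limma-voom (0.87, adjusted p = 0.033). With edgeR it did not pass without LPS replicate 1 (0.84, adjusted p = 0.11) or with the replicate number as a block (0.84, adjusted p = 0.075). Nor did it pass in edgeR without the 3 libraries high in H2-Eb1 (0.49, adjusted p = 0.34). Octanal differed from LPS by -0.48 ± 0.288 (adjusted p = 0.35). H2-Ob, the beta chain (chr17:34238903-34254414, plus strand), was measured at 4.79, 11.9 and 6.87 CPM in untreated, 9.85, 12.5 and 12.8 CPM in LPS, and 6.47, 6.02 and 8.10 CPM in LPS with octanal replicates. Untreated replicate 2 lay among the LPS libraries, and the octanal libraries lay under them. The log2 difference was 0.57 ± 0.312 for LPS against untreated (adjusted p = 0.19, edgeR) and -0.77 ± 0.313 for octanal against LPS (adjusted p = 0.20). In the alternative without untreated replicate 2, the differences of H2-Oa (1.16, adjusted p = 0.0063), H2-Ob (0.97, adjusted p = 0.019) and H2-Aa (0.72, adjusted p = 0.048) passed in LPS against untreated. Of all genes, 32.8% passed in that comparison with all libraries, and 2387 to 5658 genes passed with 1 library left out.

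The exchanger and its inhibitor can be set against each other within a library, which does not depend on the scaling between libraries. The FPKM ratio of H2-DMa to H2-Oa was 2.41, 1.34 and 2.07 in untreated, 1.12, 1.02 and 1.07 in LPS, and 0.913, 1.42 and 1.01 in LPS with octanal replicates. All 3 LPS libraries lay under all 3 untreated libraries, by a mean log2 difference of -0.82 (exact two-sided permutation p = 0.10, the smallest that 3 against 3 libraries can give). Octanal and LPS libraries differed by 0.04 (exact permutation p = 1.00). There were 18 such comparisons of 6 ratios, and none can pass a threshold of 0.05 in this design.

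Ciita, the transactivator of the whole group (chr16:10480059-10528418, plus strand), was measured at 12.5, 11.9 and 8.93 CPM in untreated, 14.1, 10.9 and 13.7 CPM in LPS, and 11.0, 6.82 and 5.23 CPM in LPS with octanal replicates. The groups overlapped, LPS replicate 2 lying just under LPS with octanal replicate 1. The log2 difference was 0.21 ± 0.272 for LPS against untreated (adjusted p = 0.57, edgeR) and -0.75 ± 0.274 for octanal against LPS (adjusted p = 0.16). Without LPS with octanal replicate 1, the latter was -1.06 (adjusted p = 0.047) and that of Cd74 -0.90 (adjusted p = 0.046), so both passed. In that fit 584 of 15864 genes passed, 486 higher and 98 lower.

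**Figure D4:**
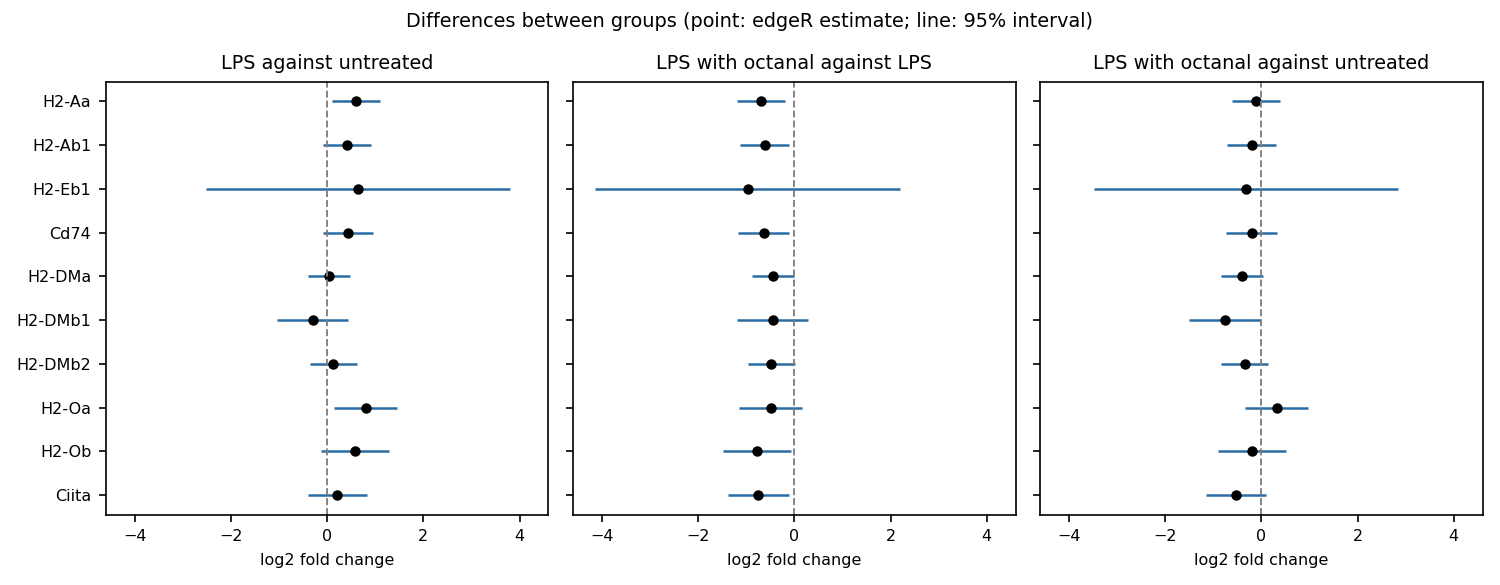
Log2 fold change of each gene in the 3 comparisons, with the edgeR estimate as a point and its 95% interval as a line; the dashed line marks no difference. All 10 estimates of LPS with octanal against LPS lie under 0, and the interval of H2-Eb1 is the widest in each comparison.

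Read as a group for LPS against untreated cells, 0 of the 10 genes passed the test, against 32.8% of all genes tested (2353 higher and 2719 lower). At an unadjusted p under 0.05 there were 2, H2-Aa and H2-Oa, against 45.1% of all genes. The median log2 difference was 0.43 over the 10 genes and 0.01 over all genes, and 50.7% of all genes had a higher fitted value. Groups did not overlap, with LPS higher, for H2-Ab1, Cd74 and H2-Oa, which is 3 of 10 against 26.7% of all genes. DESeq2 called 1 of the 9 genes it gave an adjusted p (40.3% of all genes), and limma-voom 1 of 10 (34.5% of all genes). Without the 3 libraries high in H2-Eb1, 7 of 10 values were higher and none of the 10 passed, against 6.45% of all genes. The log2 difference was then 0.33 for H2-Aa, 0.17 for H2-Ab1, 0.3 for Cd74 and 0.49 for H2-Oa, each smaller than with all libraries.

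For LPS with octanal against LPS, 0 of the 10 genes and 0% of all genes tested passed. At an unadjusted p under 0.05 there were 6, all lower (H2-Aa, H2-Ab1, Cd74, H2-DMa, H2-Ob and Ciita), against 8.69% of all genes lower at that level. The median log2 difference was -0.63 over the 10 genes and -0.05 over all genes, and 54.6% of all genes had a lower fitted value. The groups did not overlap, with octanal lower, for 8 of the 10 genes, all but H2-Eb1 and Ciita, against 19.9% of all genes. DESeq2, which called 14.1% of all genes here, called 0 of the 9 members it gave an adjusted p, and limma-voom called 0 of 10 and 0% of all genes. Without the 3 libraries high in H2-Eb1, 10 of 10 values were lower, and 0 of the 10 genes and 0% of all genes passed.

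For LPS with octanal against untreated cells, 0 of the 10 genes passed, against 8.67% of all genes. H2-DMb1 alone had an unadjusted p under 0.05 (log2 difference -0.76 ± 0.330, adjusted p = 0.18), against 27.4% of all genes. No gene of the 10 had groups without overlap, against 29.8% of all genes. Fitted values were lower for 9 of 10 genes, with a median of -0.27, and 50.6% of all genes were lower. The exception was H2-Oa at 0.32 ± 0.289 (adjusted p = 0.50). The 95% interval was -0.61 to 0.39 for H2-Aa, -0.71 to 0.30 for H2-Ab1 and -0.73 to 0.32 for Cd74, and all 3 intervals include no difference. DESeq2 (18.6% of all genes called), limma-voom (8.61%) and the fit without the 3 libraries high in H2-Eb1 (0.728%) called 0 members in this comparison.

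The factors that bring Ciita to the X and Y boxes are the RFX, CREB and NF-Y proteins of the enhanceosome. Of the 7 genes of this list, 2 rose and 1 fell with LPS, against 15.2% of all genes tested that rose and 17.6% that fell. Nfya, a Y box subunit, fell from 96.7 ± 17.8 to 63.7 ± 3.94 CPM (SD, n = 3 libraries, log2 difference -0.60 ± 0.131 (SE), adjusted p = 0.011, edgeR). Creb1 rose by 0.28 ± 0.0921 (adjusted p = 0.046) and Rfxank, an X box subunit, by 0.42 ± 0.142 (adjusted p = 0.048). Without the 3 libraries high in H2-Eb1 none of these passed (Nfya, adjusted p = 0.10; Creb1, 0.13; Rfxank, 0.12), and the calls of Creb1 and Rfxank were also lost without any 1 of the LPS libraries. None of the 7 passed in either octanal comparison, and none of 5 coactivators of Ciita passed in any comparison. The other beta chain of the complex, H2-Eb2, had a log2 difference of -1.34 ± 0.435 for octanal against LPS (adjusted p = 0.13) and -1.47 ± 0.436 for octanal against untreated (adjusted p = 0.071).

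Of 9 tested genes on the way from interferon gamma to Ciita, 4 rose and 1 fell with LPS, against the same 15.2% and 17.6% of all genes. Socs1, the feedback inhibitor of the pathway, rose from 7.93 ± 2.86 to 17.0 ± 0.791 CPM (n = 3 libraries, log2 difference 1.10 ± 0.270, adjusted p = 0.016, edgeR), and the receptor chain Ifngr2 fell by 0.73 (adjusted p = 0.0093). The cytokine Ifng itself had 19 counts in all, in 4 of 9 libraries. Of 5 transcription factors of cell lineage that act on Ciita, 3 fell and none rose, against 17.6% of all genes that fell. They were Irf8, which controls the formation of monocytes and dendritic cells, from 117 ± 42.8 to 39.5 ± 1.41 CPM (log2 difference -1.57 ± 0.225, adjusted p = 0.0021, edgeR), Irf4, with -1.42 ± 0.334 (adjusted p = 0.014), and Spi1 (PU.1), with -0.87 ± 0.172 (adjusted p = 0.0073). Without the 3 libraries high in H2-Eb1, Irf8 still passed (-1.79, adjusted p = 0.024), and Irf4 (adjusted p = 0.079), Spi1 (0.10) and all 5 of the interferon list did not, among them Socs1 (0.13) and Ifngr2 (0.089). Without LPS replicate 1, Irf4 (adjusted p = 0.052), Socs1 (0.053) and the other 3 that rose also missed the threshold. For octanal against LPS none of these lists held a gene that passed. Ifngr2 was at 0.84 ± 0.154 and Spi1 at 0.93 ± 0.173 (each adjusted p = 0.057). Against untreated cells, 2 of the 9 interferon genes rose with octanal (Socs1 and Jak2), against 2.63% of all genes. Of the 5 lineage factors 2 fell (Irf8 and Irf4), against 6.03%. Without the 3 libraries high in H2-Eb1 none of them passed in that comparison (Socs1, adjusted p = 0.25, edgeR, Jak2, 0.13, Irf8, 0.08, and Irf4, 0.13).

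Most of the genes that process antigen and the invariant chain in endosomes fell with LPS, whereas the fitted value of Cd74, the chain that is cut, was higher. Of 7 tested genes of this list, 6 fell and none rose, against 17.6% of all genes that fell. The 6 were 5 proteases (Ctss, Ctsl, Ctsb, Ctsd and Lgmn) and the cathepsin inhibitor Cst3, and the other was Sppl2a, which cuts the last membrane fragment of the invariant chain, at -0.10 ± 0.0920 (adjusted p = 0.45, edgeR). Ctss, the cathepsin that trims the last part of the invariant chain, fell from 1635 ± 843 to 275 ± 15.5 CPM (log2 difference -2.57 ± 0.329, adjusted p = 0.0014, edgeR). Ctsl, which shares that task in other cells, fell by 2.41 (adjusted p = 0.0014). Ctss (adjusted p = 0.034), Ctsl (0.030) and Lgmn (0.030) still fell without the 3 libraries high in H2-Eb1, and the other 3 did not pass. Monocyte, macrophage and neutrophil markers fell in the same comparison, with list medians of -2.21, -1.90 and -4.42, and their part in the fall of these genes was not tested. With octanal after LPS all 7 had higher values than with LPS alone, with a median of 0.90, opposite in sign to the 10 class II genes, but none passed. The first of them by p was Cst3, at 0.68 ± 0.187 (adjusted p = 0.095). Compared with untreated cells, 3 of the 7 fell with octanal, against 6.03% of all genes, among them Lgmn (log2 difference -1.79 ± 0.255, adjusted p = 0.0063, edgeR). None of them passed in that comparison without the 3 libraries high in H2-Eb1 (Lgmn, adjusted p = 0.097; Ctsl, 0.14; Ctss, 0.17).

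Of 6 genes that set the turnover of surface class II, 5 fell with LPS, against 17.6% of all genes. March1, the ligase that marks class II for removal, fell from 30.8 ± 6.69 to 12.6 ± 2.26 CPM (log2 difference -1.29 ± 0.221, adjusted p = 0.0043, edgeR). March1 still passed without the 3 libraries high in H2-Eb1 (adjusted p = 0.047), and March8 (0.12), Cd63 (0.12), Cd82 (0.090) and Cd9 (0.13) did not. Only March1 passed without untreated replicate 3, and only March1 and Cd63 without LPS replicate 1. The antagonist of March1, Cd83, was the 1 of the 6 with a higher value, 0.67 ± 0.228 (adjusted p = 0.051). None of the 6 passed for octanal against LPS, where March8, a related ligase, was at 0.97 ± 0.266 (adjusted p = 0.093). Of 5 ligands and coreceptors of Cd74, 2 fell with LPS, against 17.6% of all genes. Both also fell without the 3 libraries high in H2-Eb1, against 887 of 15650 genes. The chemokine receptor Cxcr2, which is also a defining gene of neutrophils, fell from 255 ± 83.4 to 4.72 ± 0.982 CPM (log2 difference -5.75 ± 0.676, adjusted p = 0.0010), and Cd44 by 1.42 (adjusted p = 0.0012). Mif, the ligand, was at 0.24 ± 0.150 (adjusted p = 0.24). In octanal against LPS, Cd44 was at 0.96 ± 0.172 (adjusted p = 0.054).

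B cells and dendritic cells carry class II, and the values of their markers are given for that reason. The 14 B cell markers in the table summed to 138 to 466 CPM in untreated, 201 to 272 CPM in LPS and 113 to 149 CPM in LPS with octanal libraries, and none was at 0. With octanal after LPS all 14 had lower values (median -0.79) and none passed. Cd79a, a part of the B cell receptor, was at 59.9, 92.6 and 28.8 CPM in untreated, 46.0, 46.5 and 62.1 CPM in LPS, and 21.8, 25.9 and 35.5 CPM in LPS with octanal replicates, and the octanal libraries lay under all LPS libraries. With LPS 12 of the 14 B cell markers had lower and 2 higher values than in untreated cells. Only 1 (Fcer2a) passed, upward, against 15.2% of all genes that rose and 17.6% that fell. Without untreated replicate 3, 10 of the 14 fell with LPS and none rose. Of all genes, 2387 to 5658 were called in either direction in the fits with 1 library left out. Without the 3 libraries high in H2-Eb1, 4 fell and none rose, against 887 of 15650 genes that fell. Against untreated cells, 4 of 14 fell with octanal, against 6.03% of all genes. In the fit without those 3 libraries 6 of 14 fell, against 75 of 15650 genes. The FPKM ratio of the summed classical chains to Cd79a was 2.46, 1.92 and 6.45 in untreated, 4.28, 7.52 and 3.14 in LPS, and 6.70, 6.95 and 3.45 in LPS with octanal replicates. Octanal and LPS libraries overlapped in this ratio, with a mean log2 difference of 0.22 (exact permutation p = 0.80). In each group the ratio was highest in the library high in H2-Eb1, a gene that the summed chains include. An exact test of so few libraries cannot go under 0.10, and the part of B cell RNA in the class II differences was not tested.

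The 11 dendritic cell markers summed to 356 to 656 CPM in untreated, 977 to 1100 CPM in LPS and 521 to 1156 CPM in LPS with octanal libraries, and none was at 0. With LPS 1 rose and 1 fell, against 15.2% of all genes that rose and 17.6% that fell. Ccr7, the chemokine receptor of mature dendritic cells, which T cells also express, made up most of the sum and rose (log2 difference 1.38 ± 0.339, adjusted p = 0.016, edgeR), and Itgax fell by 1.38 (adjusted p = 0.014). Without LPS replicate 1 neither passed (adjusted p = 0.055 and 0.051), and without the 3 libraries high in H2-Eb1 Itgax did (0.047) and Ccr7 did not (0.054). In the octanal group, replicate 1 was highest for Ccr7 (828 CPM, against 384 and 444 CPM). Among the class II genes, replicate 1 was also highest of its group for H2-Ab1, Cd74, H2-DMb1 and Ciita. It was lowest for H2-Eb1, H2-DMa and H2-DMb2, and lay between the other octanal libraries for H2-Aa, H2-Oa and H2-Ob. The ratio of the summed classical chains to Flt3, a receptor of dendritic cell precursors, differed between octanal and LPS by a log2 value of -0.62 (exact permutation p = 0.40). Its values were 16.1, 25.3 and 15.9 in LPS and 6.36, 19.9 and 14.2 in LPS with octanal replicates.

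Monocyte and neutrophil markers differed in the direction opposite to the fitted values of most class II genes in LPS against untreated and in octanal against LPS. In octanal against untreated most were lower, as were 9 of the 10 class II genes: 8 of 9 monocyte markers (median -0.96) and 11 of 12 neutrophil markers (median -2.30). The monocyte sum was 5863 to 14050 CPM in untreated, 2062 to 3530 CPM in LPS and 5178 to 8046 CPM in LPS with octanal libraries, and 6 of 9 markers fell with LPS, against 17.6% of all genes, among them Lyz2 (log2 difference -2.21 ± 0.453, adjusted p = 0.0085, edgeR; 0.082 without the 3 libraries high in H2-Eb1). The neutrophil sum was 12703 to 24993 CPM, 1464 to 1928 CPM and 4816 to 11348 CPM in the same order, and 11 of 12 markers fell with LPS. None of either list was at 0, and for octanal against LPS no marker of either list passed, with medians of 0.81 and 1.75. The 12 macrophage markers summed to 3139 to 3994 CPM, 2026 to 2900 CPM and 2949 to 3194 CPM, 6 falling with LPS. With the 3 libraries high in H2-Eb1 left out, 2 of the monocyte, 9 of the neutrophil and 8 of the macrophage markers fell with LPS. Of all genes 887 of 15650 fell in that fit. The 11 T cell markers all rose with LPS, against 15.2% of all genes, from sums of 143 to 742 CPM to 1326 to 1626 CPM, and summed to 777 to 1200 CPM with octanal. Few of these calls held with libraries left out: 0 of the 11 passed without the 3 libraries high in H2-Eb1 (Lck, adjusted p = 0.14; Cd28, 0.15), 1, 3 and 2 without LPS replicate 1, 2 and 3, and 2 without untreated replicate 3. The 9 NK cell markers, of which 3 rose with LPS (0 without those 3 libraries), summed to 7.96 to 28.6 CPM, 45.7 to 56.1 CPM and 24.6 to 38.5 CPM, and the 4 plasma cell markers, of which 1 fell, to 138 to 193 CPM, 70.2 to 96.3 CPM and 45.1 to 72.6 CPM. Mitochondrial transcripts took 2.20 to 3.99% of counts in untreated, 4.12 to 7.66% in LPS and 2.31 to 3.10% in LPS with octanal libraries, with the highest share in LPS replicate 2, which was also highest for H2-Aa. The part of cell mixture or of RNA quality in the class II differences was not tested.

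**Figure D5:**
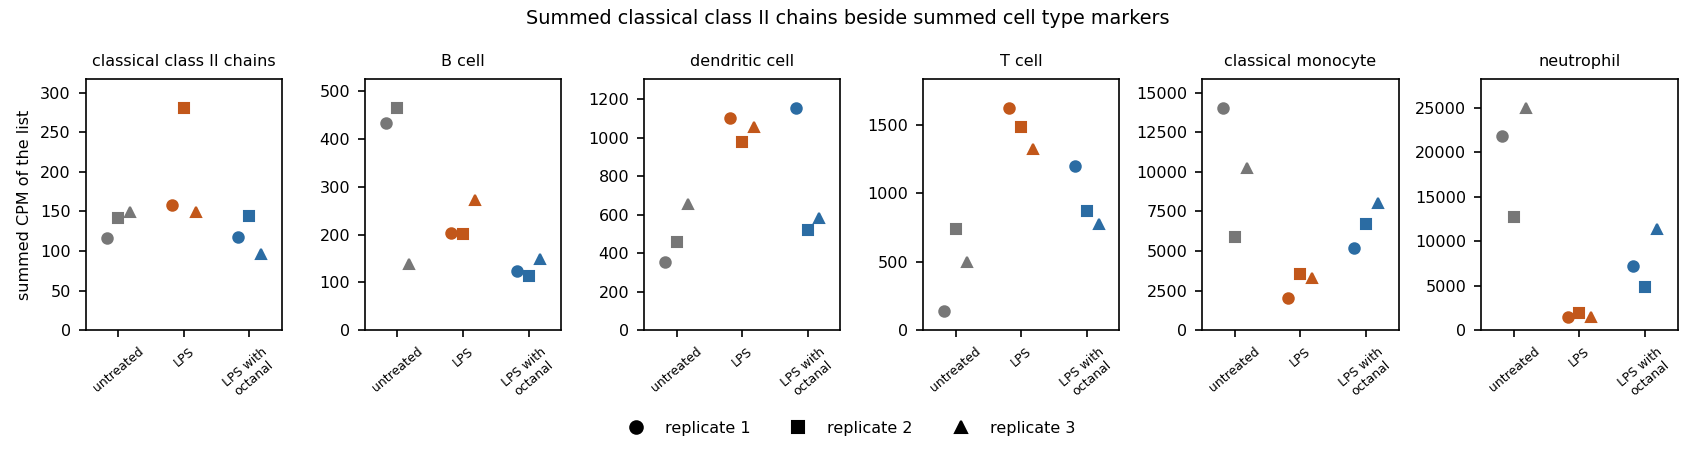
Summed CPM of the 3 classical class II chains and of 5 lists of cell type markers, by group, with a symbol per replicate and axes that start at 0. The classical chains sum to 116 to 149 CPM in untreated, 149 to 281 in LPS and 96.7 to 144 in LPS with octanal libraries, while monocyte and neutrophil sums are lowest in LPS.

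Against the monocyte receptor gene Csf1r, the summed classical chains stood at FPKM ratios of 0.721, 2.13 and 2.14 in untreated, 3.56, 4.44 and 2.40 in LPS, and 1.52, 1.38 and 0.963 in LPS with octanal replicates. The LPS libraries lay above all others. The mean log2 difference was 1.18 for LPS against untreated and -1.41 for octanal against LPS, each with the smallest exact permutation p of 0.10. Csf1r itself had a log2 difference of -0.80 ± 0.339 in the former (adjusted p = 0.099, edgeR) and 0.71 ± 0.339 in the latter (adjusted p = 0.25).

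Genes were ranked by Pearson correlation over the 9 libraries with a pattern, the mean centred log2 CPM of H2-Aa, H2-Ab1, H2-Eb1 and Cd74. The ranking took in 8703 genes of at least 10 mean CPM, without members and without gene models that carry only a systematic name. H2-Eb1 weighs most in this mean, with a pooled SD within groups of 2.06, against 0.308 for H2-Aa and 0.318 for H2-Ab1 and Cd74. The first 10 were Cpsf4 (0.90), mt-Nd4l (0.85), Zbtb9 (0.83), Plpp6 (0.82), Cdk2ap2 (0.81), Rgs10 (0.80), mt-Co1 (0.80), Gpd1l (0.80), mt-Atp8 (0.79) and mt-Nd5 (0.78). Of these, Cpsf4, Zbtb9, Plpp6 and Cdk2ap2 were also among the first 10 for H2-Eb1 alone. With H2-Eb1 left out of the pattern, which was decided after its split had been seen, the 2 lists of 10 genes shared 0 genes. The list was then led by Zmat3 (0.96), Ccdc134 (0.96) and Cd2ap (0.95). Members were left out of both rankings, the libraries share their depth and group, and with so many genes ranked over 9 libraries the values are descriptions.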

How the data were processed

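The 10 genes, the gene lists and the tests were chosen with earlier results of these data known. The deposited table holds whole-number counts that are not normalized, and FPKM values, which the authors had scaled by gene length and depth, per the file headers. GRCm38 is the build named in the submitters' processing notes, and which aligner, counter and strand setting were used is not given in the sources used here. Of the table, 10 lines of annotation text without values were left out, and 4735 of the 26770 entries were loci without a gene model. Positions were taken from GENCODE M21 and promoter sequences from RefSeq (GRCm38.p6).

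The counts went into edgeR 4.0.16 under R 4.3.3. TMM factors ran from 0.923 to 1.07, genes were kept by filterByExpr, and the test was the quasi-likelihood test in 1 model with all 9 libraries and 3 group means. Adjusted p-values are over the 15447 genes tested. Values in CPM are on TMM-scaled totals, and intervals are the fit's 95% intervals. FPKM ratios within a library were compared with exact permutation tests. Alternatives used DESeq2 1.42.0, limma 3.58.1, other filters, the FPKM values and the omission of each library. All 10 genes were named, and from each of 8 pathway lists up to 2 genes of lowest p per comparison. Of the 8 marker lists, genes of highest mean CPM were named from the monocyte, B cell, dendritic cell and T cell lists. The other marker lists are given as sums and counts of markers. Cd83, Itgax, Csf1r and Mif, the choice of H2-D1, and Irf4, Sppl2a, Fcer2a and other list genes given beside a count, were named for their values or role after these had been seen. Ighm, Ighd and Ifi30 of the lists were not found by gene symbol among the entries, so they were not analysed here. Between replicates, chi-square per degree of freedom was 42.9 to 142, above counting error.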

Additional observations from a re-analysis of the deposited data

How the results depend on the processing

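Of 621 recomputed log2 differences of the 10 genes, 594 kept their direction and their side of the threshold. Of 903 recomputed log2 differences of other named genes that had passed, 157 no longer passed and none turned. Leaving out 1 library at a time gave 0 to 3 members called for LPS against untreated, 0 to 2 for LPS with octanal against LPS and 0 to 0 for LPS with octanal against untreated. Of all genes, those fits called 2387 to 5658, 0 to 584 and 298 to 2137 in the same order. For LPS against untreated, members called were 1 with DESeq2 (40.3% of all genes), 1 with limma-voom (34.5%) and 2 in each of the 3 fits on log2 FPKM (H2-Aa and H2-Oa). Of all genes, the fit on log2(FPKM + 1) called 5028 of 11498. Apart from the replicate block below and the omission of single libraries, all other settings gave 0 members.

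Genes called for LPS against untreated ranged from 2387 to 5658 with 1 library left out (2387, 3284 and 2926 without LPS replicate 1, 2 and 3), and were 1009 without the 3 libraries high in H2-Eb1, an alternative chosen after seeing the data. The fit on log2(FPKM + 1) called 3038 of 5028 genes upward, against 2353 of 5072 on counts. For LPS with octanal against LPS, where edgeR called 0, DESeq2 called 1792, edgeR without a filter 279, with a minimum of 10 CPM 346, with the 2 groups alone 1380 and without the unannotated loci 118, limma on log2(FPKM + 0.1) called 155, and omission of single libraries gave 0 to 584 (584 without LPS with octanal replicate 1, 527 without untreated replicate 2 and 109 without untreated replicate 1). For LPS with octanal against untreated, 1339 genes were called, 2810 with DESeq2, 404 with the 2 groups alone, 298 (without LPS with octanal replicate 2) to 2137 (without untreated replicate 2) with 1 library left out and 114 without the 3 libraries. The cause was not tested.

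With the replicate number of the labels as a replicate block, 1 member was called for LPS against untreated (H2-Aa, 0.58, adjusted p = 0.029), H2-Eb1 turned to -0.26, and 4257, 0 and 923 genes were called in the 3 comparisons. Same-numbered libraries correlated in their deviations by -0.09 to 0.18, and libraries of different number by -0.15 to 0.21. Such correlations over so few libraries cannot show whether same-numbered libraries share an animal, culture or batch, and the labels do not say.

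Directions turned, with 1 library left out, for H2-Eb1 (-1.70 to 2.45 for LPS against untreated, -3.33 to 1.38 for octanal against LPS, -2.74 to 1.52 for octanal against untreated), for H2-DMa (-0.13 to 0.11) and H2-DMb2 (-0.03 to 0.33) in LPS against untreated, and for H2-Aa (-0.27 to 0.04) and H2-Ob (-0.46 to 0.22) in octanal against untreated. Without the 3 libraries high in H2-Eb1, H2-DMa was at -0.18 and H2-DMb2 at -0.01 in LPS against untreated. The log2 ratios of Cd74 to H2-Aa ranged from -0.30 to 0.08, from -0.25 to 0.26 and from -0.38 to 0.13 in the 3 comparisons when 1 library was left out. For octanal against LPS the ratio of H2-DMa to H2-Oa ranged from -0.15 to 0.17, of H2-DMb1 to H2-DMb2 from -0.24 to 0.08 and of the classical chains to Cd79a from -0.06 to 0.57; for octanal against untreated the classical chains ranged from -0.69 to 0.14 against Flt3 and from -0.76 to 0.03 against Csf1r. With 3 libraries per group, the differences of the 10 genes did not pass in the edgeR test of all 9 libraries without the block, and a difference that misses the threshold is not shown to be absent.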

Other observations

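The 3 libraries high in H2-Eb1 also stood apart in other genes between H2-K1 and H2-M2 on chromosome 17 (33996017 to 37483552, GRCm38). Of 120 genes placed there, 12 were highest of their group in those libraries in all 3 groups and 18 were lowest. Among 13327 other placed genes, 334 were highest and 600 lowest in this way. Among those highest was Gm11127, at 18.7, 29.2 and 23.9 CPM in the 3 libraries. Class I genes were on both sides: H2-T10 (24.9, 46.7 and 40.7 CPM) and H2-Q2 (6.59, 16.2 and 11.1 CPM) were highest, and H2-K1, H2-D1, H2-Q5, H2-Q6, H2-Q7, H2-T23 and H2-T24 were lowest. This set was chosen after H2-Eb1 had been seen and contains it, and no test was made.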
